A study of Mus musculus with 6 samples.

Results

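Transfer RNAs that carry aspartate (tRNA-Asp) or methionine (tRNA-Met) left fragments in every one of the 6 small RNA libraries of mouse serum. Their reads were picked out by the annotation, as all sequences listed under a tRNA gene name with Asp or Met as its amino acid. Of the 403 tRNA gene names in the lists, 34 met this rule, 16 for Asp and 18 for Met. Every Asp name carried the anticodon GTC and every Met name the anticodon CAT. Over all libraries, 4254 entries of a distinct sequence with 380051 reads belonged to Asp and 1427 entries with 93483 reads belonged to Met. Asp and Met were put together because their shares of the tRNA reads were known to differ between the library preparation kits, so these shares are described here without a test.

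The serum came from healthy male and female 129/SVj mice aged 2 to 9 months, and RNA was isolated from individual animals without a treatment under study. Libraries were prepared with 3 commercial kits, the NEBNext Multiplex Small RNA kit, the TruSeq small RNA kit v2 and the TailorMix miRNA kit v2, with 2 libraries for each. The labels number the sera 1 and 2 within each kit and do not name the animal, so the spread between 2 libraries may be technical. Nor do they say whether the kits shared animals, so differences between kits cannot be told apart from differences between animals. Reads annotated as tRNA numbered between 4911281 and 25976737 per library. They were fewest with TailorMix, and a count of 3 reads stood for at most 6.11e-05% of a library's tRNA reads. Intervals of single libraries are 95% Wilson intervals and cover counting error only, since PCR copies without molecular identifiers are not independent molecules.

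Under stress the ribonuclease angiogenin cuts mature tRNAs in the anticodon loop and releases a 5′ and a 3′ piece, and 5′ pieces are known to circulate in blood serum. tRNA-Asp is the name-giving substrate of the methyltransferase DNMT2, and its wobble base can be replaced by the modified nucleoside queuosine. Both modifications lie in the anticodon loop and are known to protect tRNAs against cleavage. tRNA-Met exists as an initiator, which starts every protein at the ribosome's start codon, and as an elongator, which inserts methionine inside the chain. Both forms share the anticodon CAT, so the gene names in the lists do not separate them.

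On the mouse genome build GRCm38, the build the reads were mapped to, the RefSeq annotation places 16 tRNA-Asp genes with the anticodon GTC and 16 tRNA-Met genes with the anticodon CAT. All 16 Asp genes are 72 bases long, whereas 9 Met genes are 72 and 7 are 73 bases long. Of the Asp genes, 5 lie on chromosome 1, the outermost being n-TDgtc4 (chr1:171037029-171037100) and n-TDgtc5 (chr1:171102371-171102442). Chromosome 13 holds 11 Met genes and 3 Asp genes. There n-TDgtc11 (chr13:21911313-21911384) lies between n-TMcat2 (chr13:21907111-21907182) and n-TMcat10 (chr13:21931169-21931240). The numbers in the deposited names, such as tRNA866, restart on each chromosome and no chromosome is listed. The names were therefore not tied to these loci. The lists give neither the letters nor the length of a read, so the part of the tRNA that a read covers was not analysed here.

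Asp reads were most frequent among tRNA reads with TailorMix and least frequent with TruSeq. In the NEBNext libraries, Asp had 109722 and 85536 reads, or 0.422% (interval 0.420% to 0.425%) and 0.510% (interval 0.507% to 0.514%) of tRNA reads. The TruSeq libraries held 7222 and 4949 Asp reads, a share of 0.0642% and 0.0543%. In the TailorMix libraries, 87208 and 85414 reads made up 1.78% and 1.69% of tRNA reads. The ranges of the 3 kits did not overlap, which held for all of the 21 tRNA types except Arg, Asn, Glu and SeC. TailorMix, with the fewest tRNA reads in all, had about as many Asp reads as NEBNext. For NEBNext, TruSeq and TailorMix, the mean Asp share was 0.466% ± 0.0621, 0.0592% ± 0.00701 and 1.73% ± 0.0630 (SD, n = 2 each). The mean share with TailorMix was thus 29.2-fold that with TruSeq and 3.71-fold that with NEBNext, where only the second relation turned on the scale of miRNA reads described later. Among the 21 tRNA types, Asp ranked 4 in both TailorMix libraries, 7 in both NEBNext libraries and 9 in both TruSeq libraries.

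Met reads showed the same order of the kits at a lower level. Met had 25649 and 24932 reads with NEBNext, 0.0987% and 0.149% of tRNA reads. With TruSeq it had 2572 and 1990 reads, 0.0229% and 0.0218% of tRNA reads. With TailorMix it had 18577 and 19763 reads, 0.378% and 0.390% of tRNA reads. Here too the kits did not overlap, as for all types except Arg, Asn, Glu and SeC. The NEBNext libraries lay further apart than those of the other kits. The means were 0.124% ± 0.0353, 0.0223% ± 0.000733 and 0.384% ± 0.00848 (SD, n = 2 each), so that TailorMix was 17.2-fold above TruSeq and 3.11-fold above NEBNext, where the second relation turned on the scale of miRNA reads. Met ranked 6 among the types with TailorMix, 9 with NEBNext and 11 with TruSeq, in both libraries of each kit.

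**Figure D1:**
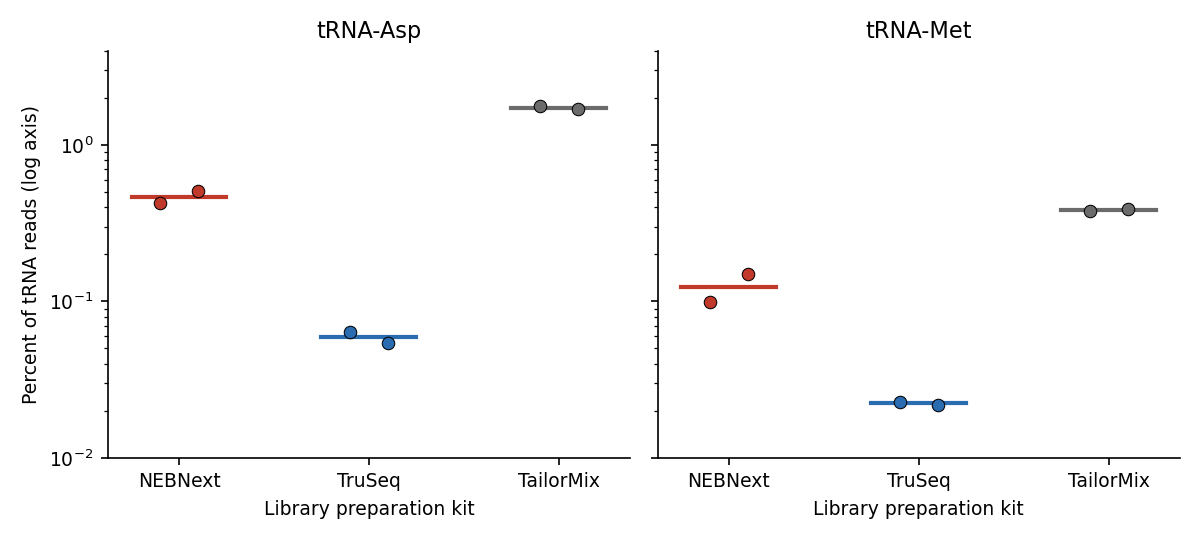
Share of tRNA reads (percent, logarithmic axis) annotated as tRNA-Asp (left) and tRNA-Met (right) by kit. Points are the 2 libraries of a kit and bars their mean. For Asp the libraries run from 0.0543% with TruSeq to 1.78% with TailorMix, and for Met from 0.0218% to 0.390%. The kits do not overlap, as for all tRNA types except Arg, Asn, Glu and SeC. The order of TailorMix and NEBNext holds for shares of tRNA reads and turns when reads are counted against miRNA reads.

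The order of TailorMix and NEBNext depended on the reference. Per 1000 miRNA reads, the NEBNext libraries had 488 and 518 Asp reads, the TruSeq libraries 20.5 and 17.5, and the TailorMix libraries 451 and 434. For Met the numbers were 114 and 151 in the NEBNext libraries, 7.31 and 7.05 in those of TruSeq and 96.0 and 100.4 in those of TailorMix, again per 1000 miRNA reads. On this scale NEBNext stood above TailorMix for both types, while TruSeq stayed the lowest. With Glu, Gly, Val and His left out, Asp made up most of the remaining tRNA reads with TailorMix, where it ranked above His. It took 56.6% and 55.2% of these remaining tRNA reads there, compared with 14.3% and 15.4% in NEBNext libraries and 1.62% and 1.26% in TruSeq libraries. Met took 12.1% and 12.8% of them in TailorMix libraries, 3.35% and 4.50% in NEBNext libraries, and 0.578% and 0.508% in TruSeq libraries.

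The ratio of Asp to Met reads varied less between kits than either share. The NEBNext libraries contained 4.28 and 3.43 Asp reads per Met read, the TruSeq libraries 2.81 and 2.49, and the TailorMix libraries 4.69 and 4.32. Both NEBNext libraries and both TailorMix libraries held more Asp per Met than either TruSeq library. The TailorMix libraries lay above the NEBNext libraries without overlap, although TailorMix replicate 2 and NEBNext replicate 1 were close. Over the 6 libraries, the type whose log2 share of tRNA reads followed Asp most closely was Met (Pearson r = 0.997), then Thr (r = 0.967) and Gly (r = 0.937). The types most like Met were Asp, then Thr (r = 0.962) and Gly (r = 0.927). These correlations are a description over 6 points that form 3 pairs, and the shares are parts of the same total in each library. Asp and Met were put together with their kit shares known, so their likeness and ratio are not independent of that choice.

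Counts of all 21 types were fitted together with edgeR's quasi-likelihood test, normalized to each library's tRNA reads, and a type was called at an adjusted p (Benjamini-Hochberg) under 0.05. Between TruSeq and NEBNext 18 of 21 types were called, a share of 85.7%. The share was 66.7% between TailorMix and NEBNext (14 types) and 90.5% between TailorMix and TruSeq (19 types), so that most types differed between any pair of kits. The Asp log2 fold change from this fit was -2.98 (standard error 0.16) in TruSeq against NEBNext, 1.89 (standard error 0.15) in TailorMix against NEBNext and 4.87 (standard error 0.17) in TailorMix against TruSeq. Met gave -2.47 (standard error 0.17), 1.64 (standard error 0.16) and 4.10 (standard error 0.18) in the same contrasts, which share libraries. Asp and Met were chosen with their kit differences known, so their ranks are a description that is not independent of that choice. They had the highest fold changes of all 21 types in TailorMix against TruSeq, with Asp first and Met second. In TailorMix against NEBNext they ranked 2 and 3 from the top. Normalized to miRNA reads this last contrast turned, to -0.19 (standard error 0.12) for Asp and -0.43 (standard error 0.12) for Met, so that the sign for Asp was uncertain. The scaling moved the median of all types as well, in that contrast from -0.11 to -2.19 with miRNA reads and to 1.40 with edgeR's TMM factors. In TruSeq against NEBNext it went from -0.86 to -2.62 and 0.55, so that a change of a type is only relative to the others. Under TMM 11 types were called higher and 7 lower in TruSeq against NEBNext, compared with 7 higher and 11 lower on tRNA reads. In TailorMix against NEBNext the split was 16 higher and 4 lower under TMM and 1 higher and 19 lower on miRNA reads, compared with 6 higher and 8 lower.

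**Figure D2:**
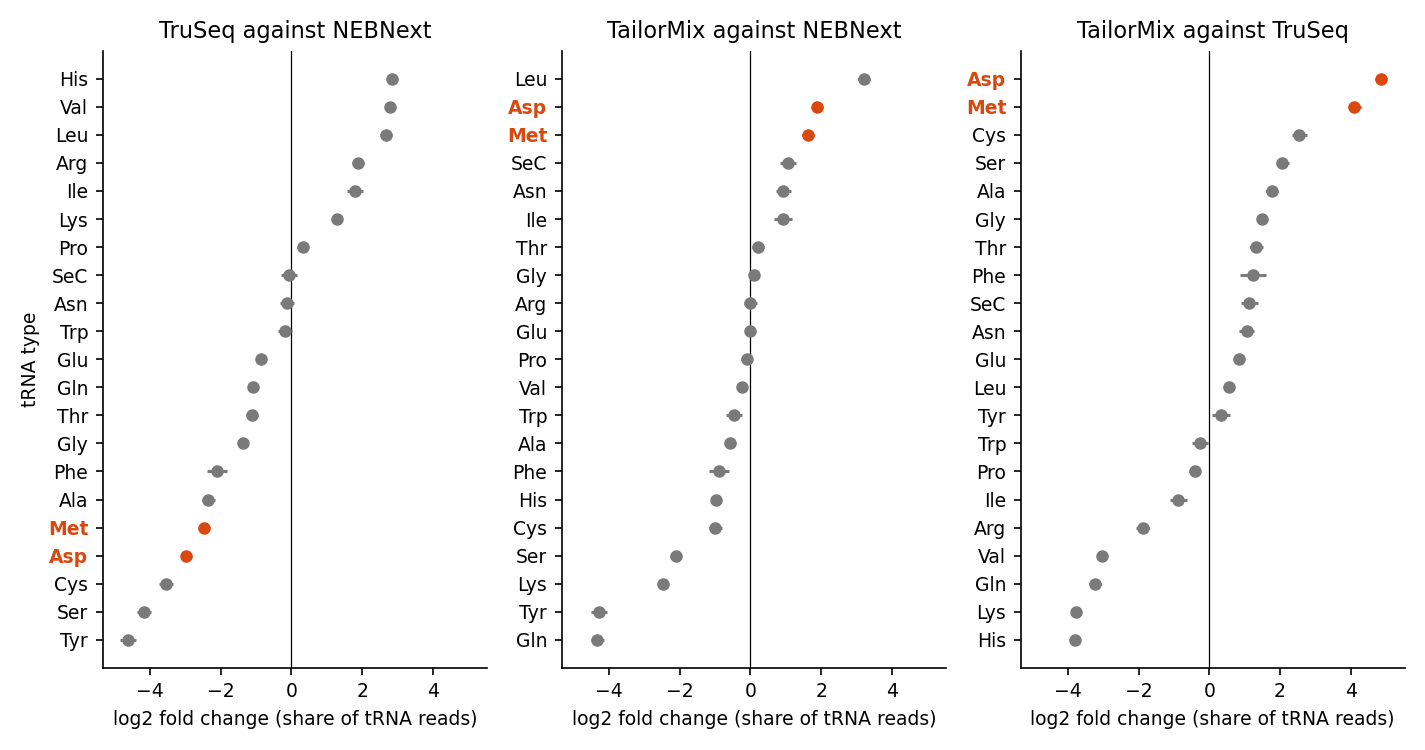
log2 fold change of the share of tRNA reads for 21 tRNA types in 3 kit contrasts, from edgeR, with bars for the standard error and Asp and Met in orange. Asp (4.87) and Met (4.10) are the top entries in TailorMix against TruSeq, but both were chosen with their kit differences known. In TailorMix against NEBNext their positions (1.89 and 1.64) become negative when miRNA reads are the library size, at -0.19 and -0.43 (standard error 0.12 each).

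The other tRNA types that share a modification of tRNA-Asp gave values in both directions. Of the types that can carry queuosine besides Asp, namely Asn, His and Tyr, 1 was called higher and 1 lower in TruSeq against NEBNext. Their median log2 fold change was -0.12, beside -0.86 over all types. His, which decodes histidine codons, gave a value of 2.84 (standard error 0.13) in that contrast and -3.81 (standard error 0.13) in TailorMix against TruSeq, opposite in sign to Asp in both. Tyr gave -4.63 (standard error 0.22) in TruSeq against NEBNext and 0.33 (standard error 0.26) in TailorMix against TruSeq, where it was not called. These values rest on low counts, as Tyr had 91 and 76 reads in the TruSeq libraries and 48 and 55 in those of TailorMix. Asn was also low there, with 164 and 113 reads for TruSeq and 131 and 149 for TailorMix. In TailorMix against NEBNext, Asn was called higher (0.93, standard error 0.21, but -1.16 on miRNA reads). His (-0.97, standard error 0.12, but 0.53 under TMM) and Tyr (-4.30, standard error 0.23, negative under every scaling run) were called lower. That contrast had a median of -0.97 for the list and of -0.11 for all types. In TailorMix against TruSeq, 1 of the 3 types was called higher and 1 lower, with a median of 0.33 beside 0.85 for all types. Gly and Val, which hold the other known DNMT2 substrates, differed in direction in TruSeq against NEBNext, with Gly lower (-1.39, standard error 0.11, but 0.027 and not called under TMM) and Val higher (2.79, standard error 0.12). In TailorMix against NEBNext 0 of these 2 types were called by edgeR on tRNA reads, with Gly at 0.090 and Val at -0.24, Val with an adjusted p = 0.0508. Both were called higher under TMM, at 1.59 for Gly and 1.26 for Val, and both were called lower on miRNA reads, at -2.00 and -2.32. On tRNA reads outside Glu, Gly, Val and His, Val was called lower at -0.22 and Gly was not called. On all tRNA reads, 1 of the 2 types had an unadjusted edgeR p under 0.05 in this contrast, beside 16 of all 21 types. DESeq2 called 71.4% of all types in this contrast, 95.2% in TruSeq against NEBNext and 85.7% in TailorMix against TruSeq. In TailorMix against TruSeq Gly was higher (1.48, standard error 0.11) and Val lower (-3.03, standard error 0.12). The medians of this pair were 0.70, -0.07 and -0.78 in TruSeq against NEBNext, TailorMix against NEBNext and TailorMix against TruSeq.

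Within a type, the reads were concentrated on few sequences, and how strongly differed between kits. This measure does not use the level of the type. The most abundant Asp sequence held 42.4% and 45.2% of Asp reads in the NEBNext libraries (46554 and 38700 reads). The leading Asp sequence of each library held 13.2% and 11.9% with TruSeq (955 and 590 reads) and 30.2% and 29.7% with TailorMix (26325 and 25371 reads). The kits did not overlap, and the libraries of a kit lay within 3 percentage points of each other. The mean leading shares were 43.8% ± 1.99, 12.6% ± 0.921 and 29.9% ± 0.341 (SD, n = 2 each). The spread between kits relative to that within kits was the largest of the 15 possible groupings of the libraries into pairs (exact permutation test, two-sided, p = 0.0667, Benjamini-Hochberg adjusted p = 0.0800 over 6 such measures). This is the smallest p that the design allows, so it cannot fall below 0.05.

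For Met the order was another. In the NEBNext libraries the leading Met sequence took 27.5% and 28.8% of Met reads, compared with 49.7% and 50.2% for TruSeq and 53.0% and 52.6% for TailorMix. Its means were 28.1% ± 0.942, 49.9% ± 0.362 and 52.8% ± 0.319 (SD, n = 2 each; exact permutation test, two-sided, p = 0.0667, adjusted p = 0.0800). NEBNext, which had the highest leading share for Asp, thus had the lowest for Met. Over the first 3 sequences together, the order of NEBNext and TailorMix turned for Asp, with 57.3% and 60.3% for NEBNext, 64.5% and 64.0% for TailorMix and 29.9% and 27.9% for TruSeq. For Met the first 3 sequences held 57.3% and 59.8%, 69.6% and 69.5%, and 63.5% and 63.3% in the same order, so that the mean difference between TailorMix and NEBNext was 11.0 percentage points compared with 24.7 for the leading sequence. TruSeq spread its Asp reads most evenly by either measure, yet about as many of its Met reads as with TailorMix fell on 1 sequence. In comparison with the other types, the leading share of Asp ranked 4 of 21 types in both NEBNext libraries, 10 in both TailorMix libraries, and 18 and 21 in the TruSeq libraries. For Met the leading share ranked 12 for NEBNext, 6 and 5 for TruSeq, and 3 for TailorMix.

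The lists number the sequences of a library from the most to the least abundant, counting sequences outside the lists too. The leading Asp sequence had number 75 and 67 in the NEBNext libraries and 57 and 62 in the TailorMix libraries, but 3319 and 4124 in the TruSeq libraries. The leading Met sequence was number 330 and 242 for NEBNext, 148 and 146 for TailorMix, and 2632 and 2684 for TruSeq. Asp and Met fragments thus stood near the top of the libraries from NEBNext and TailorMix, and far lower in those from TruSeq. The sequence numbers are specific to a library, so the same sequence was not followed from library to library.

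The sequences that followed the leading one also differed in a way that repeated within each kit. In TailorMix, the first 2 Asp sequences had nearly equal counts, 26325 and 26097 reads in replicate 1 and 25371 and 25360 in replicate 2. The first sequence took 50.2% (interval 49.8% to 50.6%) of the pair in replicate 1 and a share with an interval of 49.6% to 50.4% in replicate 2, which did not differ from equal counts beyond counting error. With NEBNext the second Asp sequence had 9963 and 7010 reads, so that the first took 82.4% and 84.7% of the pair. With TruSeq the first took 56.3% and 59.8% of the pair, at 955 against 742 reads and 590 against 396 reads. Met showed a near pair with NEBNext instead, with 7049 and 5716 reads in replicate 1 and 7184 and 5856 in replicate 2. There the leading Met sequence took 55.2% and 55.1% of the pair, compared with 83.6% and 86.6% with TruSeq and 86.5% and 86.1% with TailorMix. Behind the leading Met sequence, TailorMix replicate 1 had 2 sequences with the same count of 1540 reads. In TailorMix replicate 2 the sequences of the same rank, not known to be the same sequences, had 1677 and 1662 reads. The pairs were noticed in the data and were not tested between kits.

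**Figure D3:**
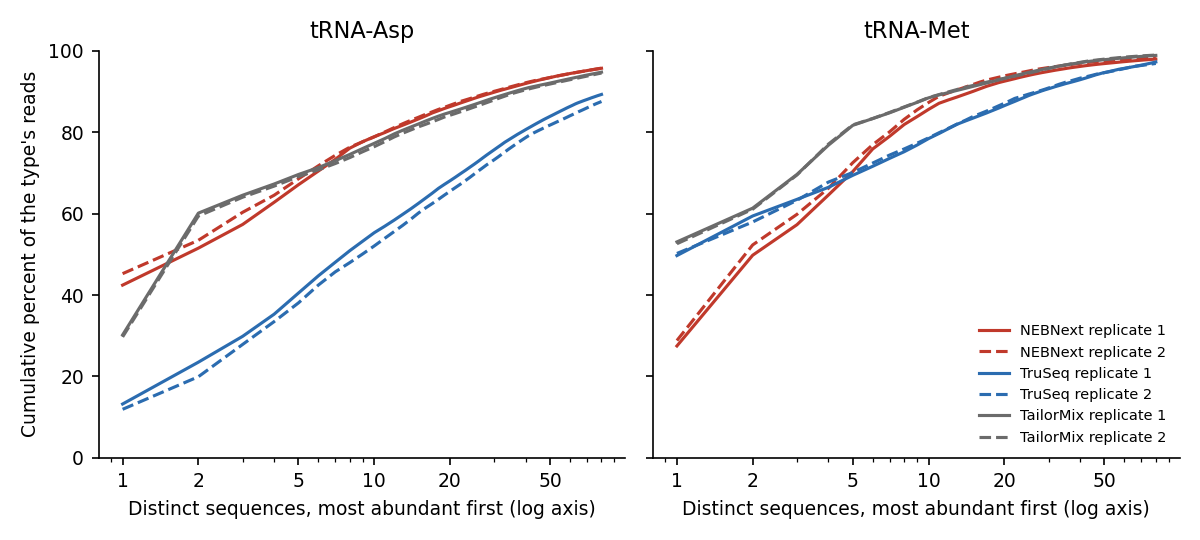
Cumulative share of the reads of tRNA-Asp (left) and tRNA-Met (right), in percent, over distinct sequences ordered from the most abundant (logarithmic axis), 1 line per library. The 2 libraries of each kit run close together. For Asp the TruSeq lines start at 13.2% and 11.9% and stay lowest, and the TailorMix lines jump at the second sequence. For Met the NEBNext lines start lowest, at 27.5% and 28.8%.

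To cover 90% of Asp reads, 31 and 30 sequences were needed for NEBNext, 87 and 103 for TruSeq and 37 and 38 for TailorMix (exact permutation test, two-sided, p = 0.0667, adjusted p = 0.0800). The same part of Met reads lay on 15 and 13 sequences for NEBNext, on 28 for either TruSeq library and on 13 for either TailorMix library (exact permutation test, two-sided, p = 0.200, adjusted p = 0.200). TruSeq needed more sequences than any library of the other kits for both types. The number of distinct sequences was also compared at equal depth, with each library thinned to the smallest one, of 4949 reads for Asp and 1990 reads for Met. The expected number of distinct Asp sequences was then 227 ± 0.740 for NEBNext, 389 ± 23.0 for TruSeq and 252 ± 4.32 for TailorMix (SD, n = 2 each; exact permutation test, two-sided, p = 0.0667, adjusted p = 0.0800). For Met it was 95.4 ± 7.37, 138 ± 5.90 and 82.9 ± 1.37 (SD, n = 2 each; exact permutation test, two-sided, p = 0.0667, adjusted p = 0.0800). Without thinning, TruSeq had the fewest distinct sequences, 441 and 405 for Asp against 915 and 803 for NEBNext and 843 and 847 for TailorMix. The higher number in TruSeq at equal depth was lost when sequences under 4 reads in a library were left out before thinning. The difference between TruSeq and NEBNext then turned from 162 to -48.8 for Asp. That between TruSeq and TailorMix turned from 54.9 to -18.6 for Met. A count of 4 reads is a larger part of the type's reads in TruSeq, which had the fewest. The filter therefore cannot tell whether the difference lay in rare sequences. Sequences with 1 read made up 36.4% to 48.9% of the distinct Asp sequences and 35.4% to 54.2% of the distinct Met sequences over the 6 libraries.

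Each distinct sequence is listed under a single gene name, although near-identical tRNA genes share sequences, so that the count of a name is uncertain. Most names changed greatly between the libraries of the same kit. Of the 14 Asp names with at least 10 reads in every library, 13 differed by more than 2-fold between the libraries of at least 1 kit, in their share of Asp reads, and 9 by more than 5-fold. The name tRNA1315 had 0.725% of Asp reads in NEBNext replicate 1 and 47.6% in replicate 2, while tRNA991 had 44.3% and 6.19%. These were the names given to the leading sequence in the 2 libraries. With TailorMix, tRNA1610 had 30.2% and 0.403% of Asp reads, and tRNA993 had 3.65% and 30.8%. For every kit, the most abundant sequence outside tRNA866 was listed under a different name in each replicate. With TruSeq these names were tRNA1610 (742 reads) and tRNA1002 (396 reads). Whether it was the same sequence in both replicates is not known from the lists.

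The exception among these 14 names was tRNA866, which differed by at most 1.16-fold between libraries of a kit. In the NEBNext libraries it held 14.3% and 12.3% of Asp reads (15717 and 10536 reads). Its share was 51.0% and 50.1% for TruSeq (3681 and 2478 reads), and 45.7% and 45.2% for TailorMix (39890 and 38579 reads). The kits did not overlap, and the means were 13.3% ± 1.42, 50.5% ± 0.635 and 45.5% ± 0.406 (SD, n = 2 each). This name was singled out after its values were seen. An exact permutation test of its share, two-sided and added at that point, gave p = 0.0667, the smallest p the design allows, and is not independent evidence. The name also covered more distinct sequences than any other Asp name, 1633 of 4254 entries. Its part of the distinct Asp sequences lay between 33.9% and 42.7% in the 6 libraries and thus varied less than its part of the reads.

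Set against all tRNA reads, tRNA866 and the other Asp names separated the kits differently. Per 1000000 tRNA reads, tRNA866 had 605 and 628 reads in the NEBNext libraries, 327 and 272 in those of TruSeq and 8122 and 7618 in those of TailorMix. All other Asp names together had 3619 and 4473 reads for NEBNext, 315 and 271 for TruSeq and 9635 and 9248 for TailorMix. TruSeq was thus 2.06-fold below NEBNext for tRNA866 and 13.8-fold below it for the other Asp names. In contrast, TailorMix was 12.8-fold above NEBNext for tRNA866 and 2.33-fold above it for the other Asp names, and only the latter direction turned when reads were set against miRNA reads. Per 1000 miRNA reads, tRNA866 had 69.9 and 63.8 reads in the NEBNext libraries and 206 and 196 in the TailorMix libraries, a 3.01-fold higher mean with TailorMix. The other Asp names had 418 and 454 reads in the former and 245 and 238 in the latter, a 1.81-fold lower mean with TailorMix. TailorMix exceeded TruSeq by 26.3-fold for tRNA866 and by 32.2-fold for the other Asp names. Both members of the nearly equal leading pair of TailorMix came from this division, since 1 of them was listed under tRNA866 in each library and the other under tRNA1610 or tRNA993. With NEBNext the leading tRNA866 sequence had 12.8% and 8.93% of the reads of the leading sequence under another Asp name. With TruSeq this value was 129% and 149%. With TailorMix it was 101% in replicate 1, and in replicate 2 the 2 sequences had 25360 and 25371 reads.

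**Figure D4:**
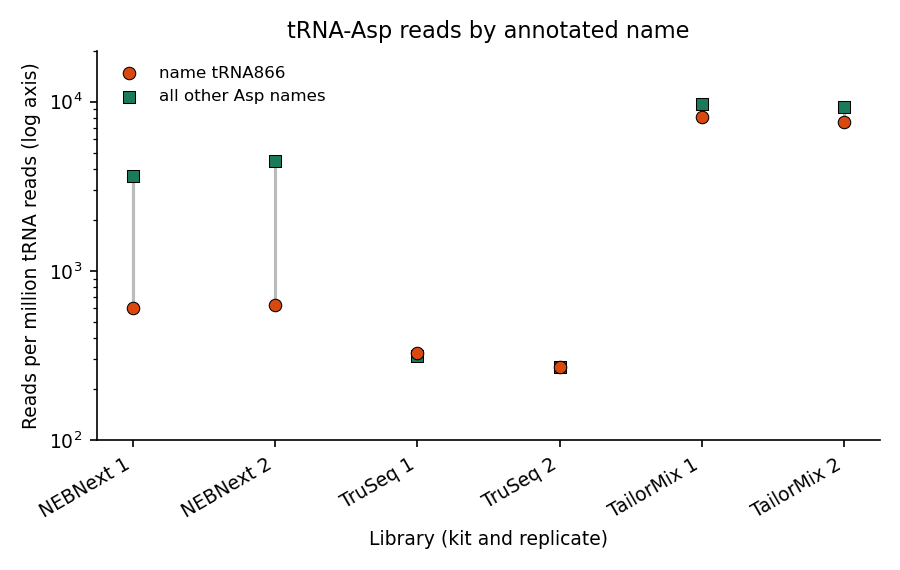
Reads per 1000000 tRNA reads (logarithmic axis) listed under the name tRNA866 (orange circles) and under all other Asp names together (green squares) in each library. The values lie farthest apart with NEBNext (605 and 628 against 3619 and 4473) and nearly coincide with TruSeq. With TailorMix both lie above NEBNext as shares of tRNA reads, an order that turns for the other Asp names, not for tRNA866, on the scale of miRNA reads.

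For Met, 7 names had at least 10 reads in every library, and 5 of these differed by more than 2-fold between the libraries of a kit. The largest shares moved from name to name. tRNA111 had 40.9% of Met reads in NEBNext replicate 1 and 3.17% in replicate 2, and 55.3% and 2.61% in the TailorMix libraries. tRNA792 had 2.69% and 80.4% in the TailorMix libraries. tRNA959 was close in the NEBNext libraries (31.6% and 30.3%) but had 64.8% and 1.61% in the TruSeq libraries. tRNA995 had 15.6% and 69.9% with TruSeq. The remaining Met names that reached 5% of Met reads in a kit's mean were tRNA108 and tRNA90, with 5.13% and 7.28% in the mean of NEBNext, tRNA78, with 9.38% in that of TailorMix, and tRNA1011, with 5.15% in that of TruSeq. The last of these was comparatively stable, counting 467 and 310 reads for NEBNext, 168 and 75 for TruSeq and 55 and 48 for TailorMix.

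**Figure D5:**
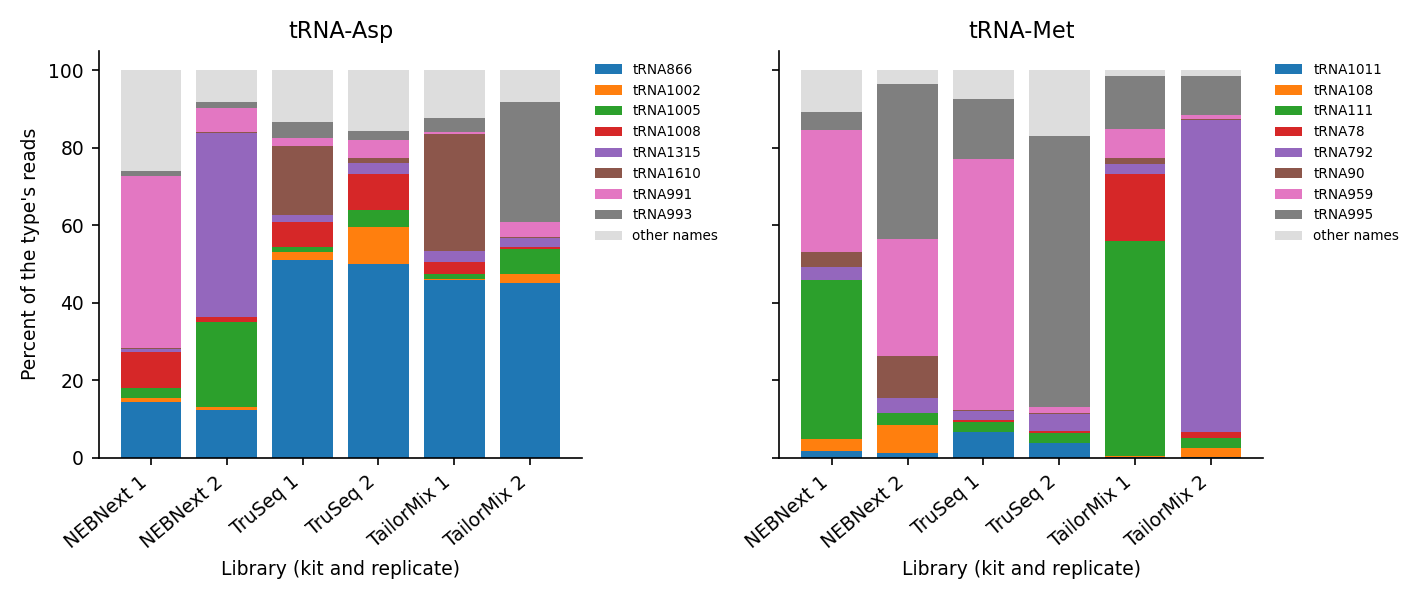
Share of the reads of tRNA-Asp (left) and tRNA-Met (right), in percent, listed under each gene name in the 6 libraries. Names reaching 5% in a kit's mean have a color of their own and all others are grey. tRNA866 (bottom of the Asp bars) is alike within kits, at 14.3% and 12.3% with NEBNext and between 45.2% and 51.0% with the other kits, while the large blocks above it and those of Met change between libraries of the same kit.

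A group of low Met names, chosen after their values were seen, followed the kits in a regular way when added together. Not every low Met name did, as tRNA82 had 7.06% and 0.682% with NEBNext and 0.350% and 8.79% with TruSeq. Within the group, tRNA913 was nearly alike with NEBNext (2.04% and 1.54%) and TruSeq (2.22% and 2.51%). Together tRNA1006, tRNA1011, tRNA61, tRNA788 and tRNA913 had 5.32% and 3.99% of Met reads for NEBNext, 13.5% and 11.5% for TruSeq and 0.727% and 0.506% for TailorMix. No library of a kit overlapped with those of another kit, which is not independent of that choice, and no test was made. These 5 names covered 55.6% and 57.4% of the distinct Met sequences for NEBNext, 49.0% and 50.7% for TruSeq and 20.9% and 16.5% for TailorMix. Their most abundant sequence had at most 168 reads in any library, so these are many sequences of low count. Other Met names gave other values. tRNA108 and tRNA90 had means of 5.13% and 7.28% with NEBNext and of 0.173% and 0.273% with TruSeq. Both were named for their NEBNext mean, so being highest with NEBNext is not independent of that choice. Their replicates also lay apart, at 0.258% and 2.35% for tRNA108 with TailorMix and 3.90% and 10.7% for tRNA90 with NEBNext.

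Differences of single names within their type were tested with edgeR's quasi-likelihood test, with the reads of the type as reference, over 288 names with at least 10 reads in at least 2 libraries. Of these, 15 were Asp and 14 were Met names. Over all names, 1.39% were called in TruSeq against NEBNext and 0% in both other contrasts. By edgeR 0 of the 15 Asp names were called in any contrast, with 1 at an unadjusted p under 0.05 in TruSeq against NEBNext, 4 in TailorMix against NEBNext and 0 in TailorMix against TruSeq. Of the 14 Met names 0 were called by edgeR, with 6, 7 and 6 at an unadjusted p under 0.05 in these contrasts. Over all 288 names, 69, 59 and 49 had an unadjusted edgeR p under 0.05 in the same order of contrasts. At the spread of these names between libraries, this test also missed large changes in simulated counts, so a count of 0 does not show that the names held equal shares. DESeq2, run as an alternative, called 5, 6 and 1 Asp names and 6, 7 and 7 Met names, beside 31.6%, 24.3% and 20.1% of all names. Met names called by DESeq2 in TailorMix against TruSeq were 2 higher and 5 lower, beside 31 higher and 27 lower over all names. In the edgeR fit the log2 fold change of tRNA866 within Asp was 1.92 (standard error 0.68, adjusted p = 0.181) in TruSeq against NEBNext and 1.77 (standard error 0.68, adjusted p = 0.241) in TailorMix against NEBNext. With DESeq2 the adjusted p for the same values were 0.00600 and 0.0135. tRNA1011 had a log2 fold change within Met of -4.26 (standard error 0.70, edgeR adjusted p = 0.0905) in TailorMix against TruSeq.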

How the data were processed

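Small RNA of mouse serum was sequenced in 6 libraries, 2 per kit, grouped by the kit named in the sample titles. Adaptors were removed by the authors (cutadapt 1.8.1), followed by filters on length, adaptor presence and quality, and reads were mapped without mismatches with Bowtie 1.1.2 to GRCm38 and annotated reads by genomic position. They deposited raw read counts per distinct sequence, with an RNA class and 1 gene name each, and counts per miRNA, without normalization. Reads listed under several classes carry no gene name and were left out.

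Counts were summed by tRNA type and by gene name in Python 3.11.15 (numpy 2.4.6, scipy 1.17.1, pandas 2.3.3). Types and names were tested with edgeR 4.0.16 (R 4.3.3; glmQLFit and glmQLFTest, Benjamini-Hochberg adjustment, all 6 libraries, no replicate block). Library size was the total of tRNA reads for types, and the reads of a name's own type for names with at least 10 reads in at least 2 libraries. Standard errors are the absolute log2 fold change divided by the root of the F statistic. Values within a type were compared by exact permutation over 15 groupings, with the F ratio between kits as statistic. Thinned numbers of sequences are hypergeometric expectations. Scripts were tested on simulated counts. A chi-square of the type counts per degree of freedom was 1571 between the NEBNext libraries, 5217 for TruSeq and 106 for TailorMix, so the libraries of each pair were counted separately. DESeq2 1.42.0, other library sizes and filters, a replicate block and leaving out libraries were alternatives. Loci came from RefSeq (GRCm38.p6).

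Named were Asp, Met, the types of the queuosine and DNMT2 lists, the 3 types most alike in share, and gene names with at least 5% of a type's reads in the mean of a kit. Outside this rule, some Met names of low share and the types whose kit ranges overlapped were named after their values were seen. The members and lists were chosen with earlier results of these data known.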

Additional observations from a re-analysis of the deposited data

Results flagged for a closer look

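Reads listed under both piRNA and tRNA carry no gene name and enter none of the comparisons above. NEBNext replicates 1 and 2 had 182 and 125 of them, TruSeq replicates 1 and 2 had 5 and 0, and TailorMix replicates 1 and 2 had 60 and 41, above the limit of 3 counts in 5 of 6 libraries. Whether any of them came from tRNA-Asp or tRNA-Met was not tested.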

How the results depend on the processing

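With miRNA reads as library size, the log2 fold change in TailorMix against NEBNext reversed to -0.19 for Asp and -0.43 for Met (standard error 0.12 each). The sign for Asp is thus uncertain on this scale. The fold change became -4.72 and -4.21 in TruSeq against NEBNext and 4.54 and 3.77 in TailorMix against TruSeq. TMM gave -1.57 for Asp and -1.06 for Met in TruSeq against NEBNext, 3.39 and 3.13 in TailorMix against NEBNext, and 4.19 for Met in TailorMix against TruSeq. DESeq2 size factors gave -2.28 and -1.76 in TruSeq against NEBNext and 4.29 and 3.51 in TailorMix against TruSeq. On tRNA reads outside Glu, Gly, Val and His the values were -3.37 and -2.85 in TruSeq against NEBNext and 5.28 and 4.52 in TailorMix against TruSeq. Without sequences under 4 reads Met was 4.18 in TailorMix against TruSeq. Leaving out single libraries gave 1.76 to 2.04 for Asp and 1.37 to 1.96 for Met in TailorMix against NEBNext, and -2.73 to -2.14 for Met in TruSeq against NEBNext. Chosen after seeing the data, tRNA866 alone gave a log2 ratio of mean shares of -1.04, 3.67 and 4.72 and the other Asp names -3.79, 1.22 and 5.01 in the same order of contrasts.

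The mean share of Asp among tRNA reads outside Glu, Gly, Val and His was 14.9%, 1.44% and 55.9% with NEBNext, TruSeq and TailorMix, and that of Met 3.92%, 0.543% and 12.4%. Without the leading sequence Asp was 0.262%, 0.0517% and 1.22%, and Met was 0.0112% with TruSeq and 0.182% with TailorMix. Of all annotated reads, Asp took 1.65% and Met 0.367% with TailorMix. Without sequences under 4 reads Met was 0.0210% with TruSeq. The numbers of called types stayed within 1.5 times of 18, 14 and 19 under every alternative run, with 12 to 16 in TailorMix against NEBNext when single libraries were left out. The 4 names called within their type in TruSeq against NEBNext became 0 without a filter, 0 with the replicate block and 0 when any library was left out (range 0 to 0), and 91 with DESeq2, which called 70 and 58 in the other contrasts. The difference in distinct sequences between TruSeq and NEBNext for Asp reversed to -48.8 without sequences under 4 reads and to -436 without thinning, and that between TruSeq and TailorMix for Met to -18.6 and -62. That filter also lowered the difference in sequences that hold 90% of reads from 64.5 to 26 for Asp and from 15 to 6 for Met. It was applied at each library's full depth and is strictest, relative to the type's reads, in TruSeq. The differences in leading share between NEBNext and TruSeq for Asp and between TailorMix and NEBNext for Met, and those in the share of tRNA866 kept their direction under every alternative run for them. The cause of these changes was not tested.

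The replicate numbers were not taken as pairs, since the labels do not tie them to an animal across kits. The difference between replicates 1 and 2 over 21 types correlated at Pearson's r = 0.200 for NEBNext with TruSeq, r = 0.0508 for NEBNext with TailorMix and r = 0.118 for TruSeq with TailorMix. A replicate block gave 17, 14 and 19 called types. TruSeq had the fewest Asp and Met reads, which limits its values most.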
